A study of Mus musculus with 4 samples.

Results

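Thrsp and 8 further genes of fatty acid synthesis (Fasn, Acaca, Acly, Scd1, Scd2, Srebf1, Elovl6 and Me1) were followed in single cardiac endothelial cells (ECs). They are 9 of the 31253 genes in the count tables, and each was found once by its symbol. The set was chosen by the levels measured in these libraries, after Thrsp had been seen to differ between the diets, so the difference of a member between the diets is given below as a description, without a test. The cells were RFP-positive cells sorted from the left ventricle of mice and sequenced by a 3′ single-cell assay, in which each captured RNA molecule is counted once by a unique molecular identifier (UMI). There were 4 libraries, 2 from mice on Chow diet (NC) and 2 from mice with experimental heart failure with preserved ejection fraction (HFpEF). The study asks what the SR-B1 receptor does in ECs of HFpEF hearts, and the question taken up here is how lipogenic transcripts differed between EC classes and between the diets.

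In the NC diet 10% of the energy came from fat. In the HFpEF diet it was 60%, and the mice also received 0.5 mg/ml L-NAME, an inhibitor of nitric oxide synthase, and both regimens ran for 20 weeks. The share of energy from sources other than fat, among them carbohydrate, was therefore smaller in the HFpEF diet. Because fat, these other sources and L-NAME changed together, their effects cannot be told apart. All mice carried a tamoxifen-inducible Cre under the Cdh5 promoter, which is active in ECs, and a tdTomato (RFP) reporter that Cre switches on, with tamoxifen given at 7 weeks of age. Mice of the study were heterozygous or homozygous for loxP sites around exon 2 of Scarb1, the SR-B1 gene, a floxed allele made in C57BL/6N mice. The labels do not say which library had which Scarb1 genotype, so genotypes may be mixed within a diet, and the number of mice behind a library is not given in the sources used here. Nothing in the labels says that the libraries came from separate animals. The p-values therefore measure the spread between these libraries only, which may be technical or may hold a difference in genotype.

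De novo lipogenesis turns citrate into long-chain fatty acids. Acly cleaves citrate to acetyl-CoA, Acaca carboxylates it to malonyl-CoA, and Fasn builds palmitate from both with NADPH, part of which Me1 supplies. Elovl6 lengthens palmitate, Scd1 and Scd2 introduce the double bond of oleate, and Srebf1 encodes SREBP-1, the transcription factor that turns on most of these genes after feeding. Thrsp (Spot 14) was found as a thyroid hormone-responsive transcript of liver, and it is a small acidic protein without known enzymatic activity, high in liver, fat and lactating mammary gland. It rises with carbohydrate feeding alongside the lipogenic enzymes, and its paralog Mid1ip1 (MIG12) binds acetyl-CoA carboxylase and promotes its polymerization. Capillary ECs of the heart pass fatty acids from the blood to cardiomyocytes, and lipogenesis is not counted among their main tasks.

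The authors' filter (over 200 genes and under 20% mitochondrial UMIs) left 40154 of 41843 cells, of which 37812 were ECs of any class. Depth differed between the diets, with a median of 3754 and 4127 UMIs per cell in NC and 1736.5 and 1619 in HFpEF, and the 4 libraries held between 10801149 and 47117650 UMIs. Levels are therefore given as UMIs of a gene per 1000000 UMIs (CPM) summed over the cells of a class in a library, and shares of cells after thinning. Between 9 and 39 cell barcodes were shared by any pair of libraries. Classes were rebuilt from clusters and markers, and 20347 cells were capillary-like, 3323 artery-like and 1190 vein-like. ECs with cardiomyocyte (5808 cells), platelet (3986) or artery markers (2641) among their leading genes were kept as classes of their own. Scarb1 in capillary-like ECs was at 115 CPM in NC library 1, 50.7 in NC library 2, 113 in HFpEF library 1 and 52.6 in HFpEF library 2. No genotype was read from these levels.

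Thrsp (ENSMUSG00000035686) lies on chromosome 7 of GRCm38, from 97412938 to 97417730 on the minus strand, and no other annotated gene overlaps it. Promoters of 7 of the 9 members were found in a RefSeq table for GRCm38.p6 (250 bases before to 50 after the start), and those of Scd1 and Scd2 were not. The sequences below are shown because Thrsp and Fasn, the textbook partner it is regulated with, share a pair of CCAAT boxes close to the start, although their values went apart in these cells. Positions count back from the start of the RefSeq transcript, with -1 the base before it, and capitals mark the box on the strand of the gene (ATTGG is CCAAT read on the opposite strand). The Thrsp pair begins at -79 and -52, and in GENCODE both boxes lie within the 5′ UTR of 1 longer transcript.
Thrsp, chr7:97417617-97417637, minus strand: acgctgggATTGGctcaaaac
Thrsp, chr7:97417590-97417610, minus strand: gtgttgctCCAATggttgggc
Fasn, chr11:120824625-120824645, minus strand: gcgccgccATTGGgccaccga
Fasn, chr11:120824597-120824617, minus strand: ctcggtgtCCAATtggtttcg

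The Fasn pair begins at -90 and -62, and its second box overlaps another ATTGG that begins at -59. Of 32851 mouse promoters, 37.4% held CCAAT on either strand within the 300 bases. An ATTGG followed by a CCAAT, with first bases 25 to 30 apart, was found in the 250 bases before the start of 132 promoters (0.402%), a pattern that was chosen after the Thrsp and Fasn sequences had been seen. The 250 bases before the Fasn start and, as a contrast, those before the start of Acly, the enzyme with the highest level of the 8 in capillary-like ECs, follow.
Fasn, chr11:120824548-120824797, minus strand, with ATTGG and CCAAT in capitals: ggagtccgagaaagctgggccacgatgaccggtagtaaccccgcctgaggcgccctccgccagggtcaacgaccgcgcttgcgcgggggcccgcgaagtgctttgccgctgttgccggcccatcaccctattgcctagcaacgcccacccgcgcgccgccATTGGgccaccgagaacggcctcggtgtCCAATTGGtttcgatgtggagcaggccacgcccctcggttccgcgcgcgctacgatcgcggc
Acly, chr11:100528001-100528250, minus strand, with GC boxes (GGGCGG or CCGCCC) and the nuclear receptor half-site (AGGTCA) in capitals: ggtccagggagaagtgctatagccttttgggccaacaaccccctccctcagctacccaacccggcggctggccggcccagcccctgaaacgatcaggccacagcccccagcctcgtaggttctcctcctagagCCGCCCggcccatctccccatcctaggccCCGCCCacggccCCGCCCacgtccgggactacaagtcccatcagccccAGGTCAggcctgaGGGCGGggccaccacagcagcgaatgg
The Acly stretch held 4 GC boxes and an AGGTCA at -40 but neither CCAAT nor ATTGG. A GC box was found in 35.7% of all promoters and AGGTCA or its complement in 16.3%. The Thrsp promoter held none of CACGTG (7.15% of all promoters), AGGTCA, TCACNCCAC (1.24%), TATAAA (13.6%) or GGGCGG on either strand. The Mid1ip1 promoter held GC boxes and none of the other motifs searched. These are matches of letters and say nothing about which factors bind.

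Thrsp was the most abundant of the 9 transcripts in capillary-like ECs, as counted by 3′ UMIs, and it was lower in both HFpEF libraries than in both NC libraries. The levels were 260.1 and 279 CPM in NC (4825 and 5043 UMIs) and 121 and 118 CPM in HFpEF (695 and 3115 UMIs). The NC mean was 269 ± 13.2 CPM and the HFpEF mean 120 ± 2.36 CPM (SD, n = 2 libraries each), so Thrsp was 55.6% lower in HFpEF, a difference far wider than the spread within a diet. The fit over all genes gave a log2 fold change (HFpEF minus NC) of -1.15 with a standard error of 0.10. Ranked by size of fall among the 7624 genes with a mean of at least 10 CPM, Thrsp was at place 6. Such a place, like the difference itself, follows from the choice of the gene and is no separate finding.

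**Figure D1:**
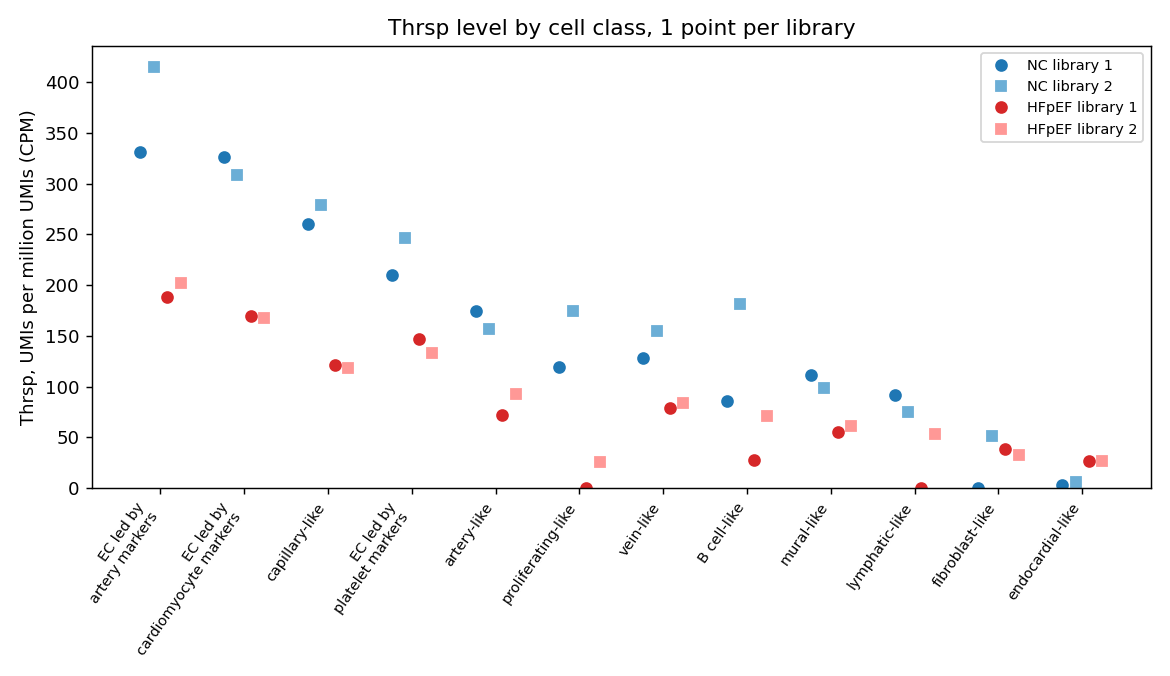
Thrsp level (CPM, linear axis from 0) in each cell class, with 1 point per library and NC and HFpEF in different colours. In capillary-like ECs the NC points lie at 260.1 and 279 CPM and the HFpEF points at 121 and 118, and the same order of the diets is seen in the artery-like, vein-like and mural-like classes.

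The level of Thrsp differed between EC classes by more than the library spread in many places of the order. Under NC it was highest in the ECs led by artery markers (331 and 415 CPM), whose leading genes are Cyp1a1, Esm1 and Rbp7 beside Hey1, followed by those led by cardiomyocyte markers (308 to 327 CPM) and by the capillary-like ECs. Platelet marker-led ECs had 210 and 247 CPM. Artery-like ECs, whose leading genes include Gja5 and Fbln5, had 174 and 157 CPM, but the class was mixed. With a finer clustering (resolution 1.5), the artery-like cluster led by Clu, Cytl1 and Mgp, with Gja5 among its leading genes, had 24.8 CPM. The other artery-like clusters had 153 (led by Fbln5, Tgfb2 and Nebl), 142 (Nebl, Alox12 and Fbln5) and 261 CPM (Alox12, Hey1 and Nebl). These cluster values are over all libraries and mix the diets. The artery-like, proliferating-like, vein-like, B cell-like and mural-like classes followed each other with overlapping libraries between neighbours. Lymphatic-like ECs were lower, with 91.5 and 75.4 CPM.

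Endocardial-like cells, which line the chamber and not the vessels, were the one endothelial class with next to no Thrsp under NC, at 3.19 and 5.98 CPM (1 and 2 UMIs). They were also the exception in direction, with 26.3 and 26.2 CPM in HFpEF, but these values rest on 2 and 9 UMIs. Their sum of capillary markers was higher in HFpEF as well (2337 and 2211 CPM against 1661 and 1258 in NC), and the part of this in the Thrsp values was not tested.

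Artery-like ECs held 72.2 and 92.2 CPM of Thrsp in HFpEF, below both NC libraries. The log2 fold change was -0.95 with a standard error of 0.15, at place 19 of 7701 genes. In vein-like ECs the levels were 128 and 154 CPM in NC and 78.4 and 84.0 in HFpEF, again without overlap. The vein log2 fold change was -0.79 with a standard error of 0.18, at place 142 of 7982 genes. Whether the fold differs between the 3 classes was not tested, since Thrsp was chosen for it. When each cell was assigned by its own marker UMIs in place of its cluster, the vein class shrank to 39, 38, 35 and 178 cells, and the direction was lost there. Thrsp then had 35.6 and 63.4 CPM in NC and 44.6 and 57.0 in HFpEF (7, 12, 4 and 27 UMIs), a log2 fold change of 0.12.

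Mural-like cells, which are pericytes and smooth muscle cells marked by Rgs5 and Myh11, also held Thrsp, with 111 and 98.5 CPM in NC and 55.3 and 61.1 in HFpEF. They held capillary markers too, and their ratio of Thrsp to these markers was close to that of the capillary-like ECs. For each 100 UMIs of the markers Car4, Rgcc, Cd36, Gpihbp1, Timp4 and Aqp1, mural-like cells had 1.92 and 2.10 Thrsp UMIs in NC and 1.04 and 1.13 in HFpEF. Capillary-like ECs had 1.80 and 2.03 in NC and 1.10 and 1.05 in HFpEF. Artery-like ECs had 2.15, 2.31, 1.14 and 1.30 Thrsp UMIs per 100 of the capillary markers, in the order NC 1, NC 2, HFpEF 1, HFpEF 2, and vein-like ECs 1.08, 1.37, 0.842 and 0.895. Expression in mural cells, artery ECs or vein ECs and RNA from capillary cells cannot be told apart by these values.

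The lower level of Thrsp in HFpEF was found in most clusters of cells. Of the 18 clusters of all kept cells, 16 had lower Thrsp in both HFpEF libraries than in both NC libraries, by 0.58 to 3.52 on the log2 scale. The value of 3.52 belonged to the proliferating-like cluster and rests on few cells. It had 43 and 38 Thrsp UMIs in NC, and 0 and 13 in HFpEF from 10 and 97 cells. The next largest fall was 1.17. The exceptions were the endocardial-like cluster, which was higher, and the fibroblast-like cluster, where the libraries overlapped (7 UMIs in NC and 11 in HFpEF). The median over the 18 clusters was -0.88. With a finer clustering, 27 of 32 clusters were lower, 2 were higher and 3 overlapped. Clusters share libraries and free RNA, so they are not replicates of the diet.

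Among the capillary-like clusters, the one led by Cyp1a1, Car4 and Timp4 had the highest Thrsp, with 336 and 390 CPM in NC and 152 and 169 in HFpEF. Thrsp itself was among the 10 leading genes of this cluster, although no member had been used for clustering. Leading genes were ranked over all libraries together, and this cluster held 709 and 528 NC cells and 216 and 581 HFpEF cells. All kept cells were 7123 and 6695 in NC and 5454 and 20882 in HFpEF. The part of this mix of diets in the place of Thrsp was not tested. The cluster led by Adh1, Aqp1 and Timp4 followed with 282 and 296 CPM in NC and 154 and 129 in HFpEF. In the remaining capillary-like clusters the NC values were lower. The cluster led by Btnl9, Pth1r and Adamts5, with Arc and Egr3 among its leading genes, had 243 and 255 CPM in NC. Its HFpEF values, 147 and 128 CPM, overlapped those of the Adh1-led cluster. The cluster led by the chemokine gene Cxcl10 and by Plaur had 215 and 231 CPM in NC and 98.0 and 109 in HFpEF, and the cluster led by the angiogenic genes Pgf and Apln had 166 and 124 in NC and 95.4 and 87.5 in HFpEF. A cluster led by heat shock genes, which held 106 and 50 NC cells but 590 and 2827 HFpEF cells, had 182 and 222 CPM in NC and 110 and 121 in HFpEF. In each of these clusters both HFpEF libraries lay below both NC libraries.

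**Figure D2:**
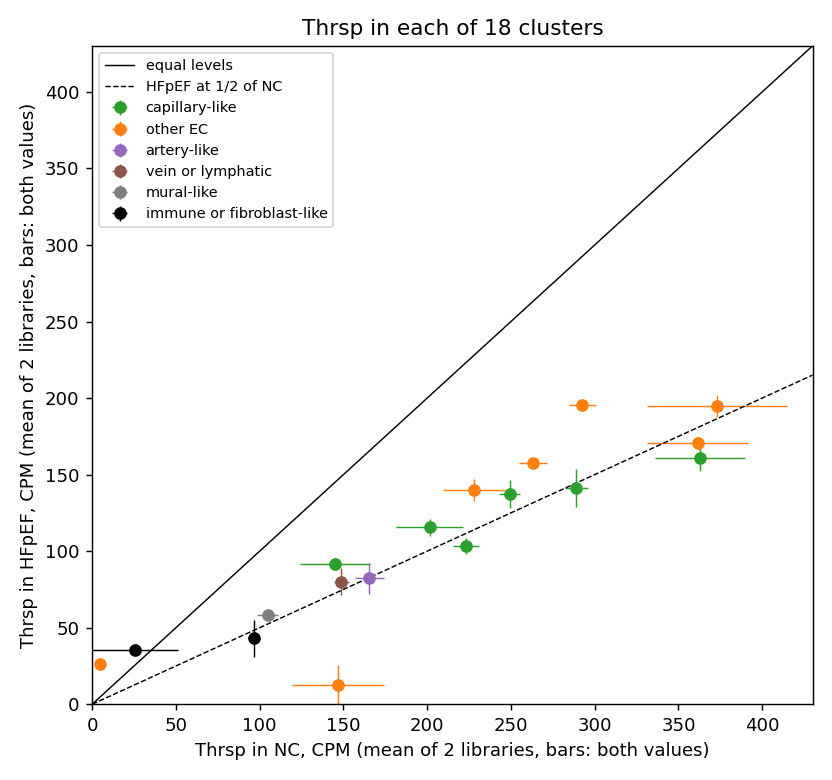
Mean Thrsp level in HFpEF (vertical axis, CPM) against that in NC (horizontal axis, CPM), with 1 point per cluster, bars that span the 2 libraries of a diet, a solid line for equal levels and a dashed line for an HFpEF level of 1/2 of NC. Of the 18 points 16 lie below the solid line, and the endocardial-like cluster (26.3 and 26.2 CPM in HFpEF against 3.19 and 5.98 in NC) and the fibroblast-like cluster lie above it.

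The lower sum came with fewer cells that had any Thrsp UMI. After each capillary-like EC was thinned to 1000 UMIs, 22.5% (95% exact Clopper-Pearson interval 21.2 to 23.8) of 4040 cells in NC library 1 and 24.6% (23.2 to 26.1) of 3534 cells in NC library 2 had one. In HFpEF it was 11.4% (10.1 to 12.7) of 2446 cells and 11.1% (10.5 to 11.8) of 9022 cells. The intervals cover counting error only, since cells of a library are not replicates of the diet. Thrsp was chosen for its difference between the diets, so the gap between these shares is a description. Thinning left out 27, 19, 119 and 1140 shallower cells. The mean HFpEF share was 0.477 of the mean NC share. Without thinning the shares were 55.9% and 64.0% in NC and 21.9% and 22.7% in HFpEF, but the median depth of these cells was 4067 and 4474 UMIs in NC against 1988 and 1978.5 in HFpEF.

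A cell with Thrsp held few copies in every library. Among thinned cells with a Thrsp UMI the mean was 1.21 UMIs in both NC libraries and 1.11 and 1.12 in HFpEF. The variance of Thrsp UMIs over cells was 1.15, 1.10, 1.09 and 1.10 times the mean. It was thus above 1, the value for random sampling from cells of equal level, in every library. Cells with 3 or more Thrsp UMIs were 0.619% and 0.679% of those in the NC libraries against 0.123% and 0.0887% in the HFpEF libraries. Whether there is a separate set of cells with high Thrsp was not tested.

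**Figure D3:**
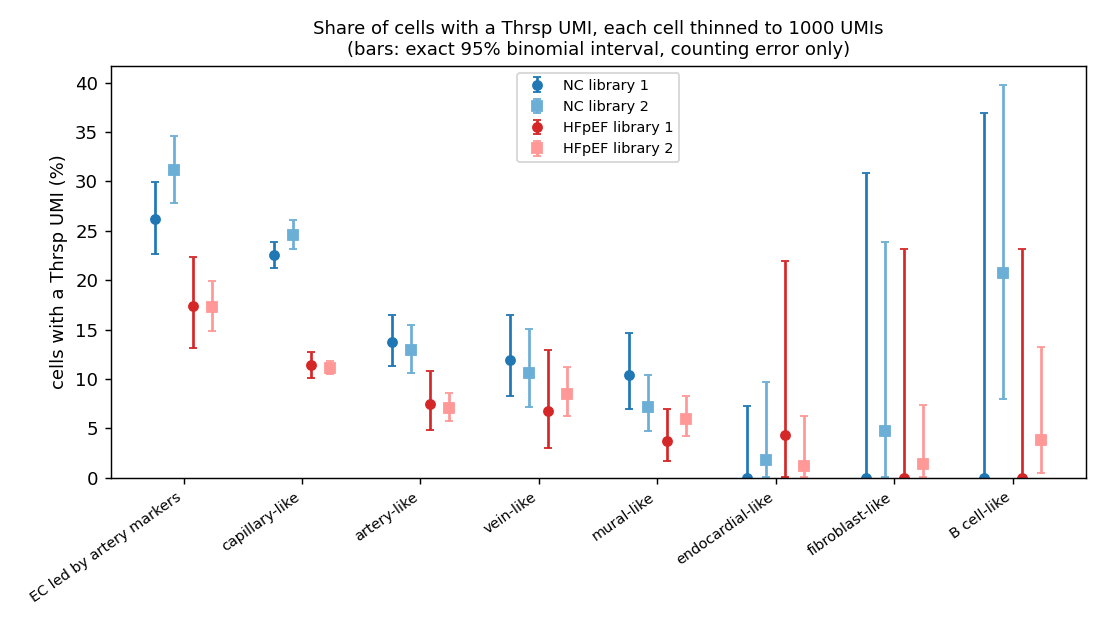
Share of cells (percent, axis from 0) with at least 1 Thrsp UMI after thinning to 1000 UMIs per cell, by class and library, with 95% exact binomial intervals as bars. Capillary-like ECs stand at 22.5% and 24.6% in NC and at 11.4% and 11.1% in HFpEF, and the mural-like class at 3.70% to 10.4%.

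The mural-like, vein-like, artery-like and endocardial-like classes had lower shares. The ECs led by artery or cardiomyocyte markers, whose Thrsp CPM was above that of capillary-like ECs in every library, are not among these. Mural-like cells had a thinned Thrsp UMI in 10.4% and 7.18% of cells in NC and 3.70% and 5.99% in HFpEF, at a median depth of 5604.5, 6361, 2610 and 2950 UMIs before thinning. Vein-like ECs, with 11.9% and 10.6% in NC and 6.78% and 8.48% in HFpEF, were close to these shares. Artery-like ECs had 13.7% and 12.9% in NC and 7.44% and 7.04% in HFpEF. Endocardial-like cells were lower, with 0 of 49 cells in NC library 1 and 1.82%, 4.35% and 1.15% in the others. For the 0 of 49 cells an upper limit of 6.12% was taken, which is 3 cells in 49 and not the exact interval. The capillary-like shares stood above the mural-like share of the same library in all 4 libraries.

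The enzymes of the pathway did not separate the diets in the way of Thrsp in capillary-like ECs. Of the 9 members, all of which passed the count filter there, Thrsp was lower without overlap, Me1 was higher without overlap, and the libraries of the other 7 overlapped. In the same fit 26.8% of 12168 genes were lower and 25.6% higher without overlap, so neither count stands out from the background. The 8 members beside Thrsp had log2 fold changes from -0.08 to 0.53 with a median of 0.21, against a median of -0.0046 over all genes. The highest of these values belonged to transcripts with few UMIs, as their standard errors show.

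**Figure D4:**
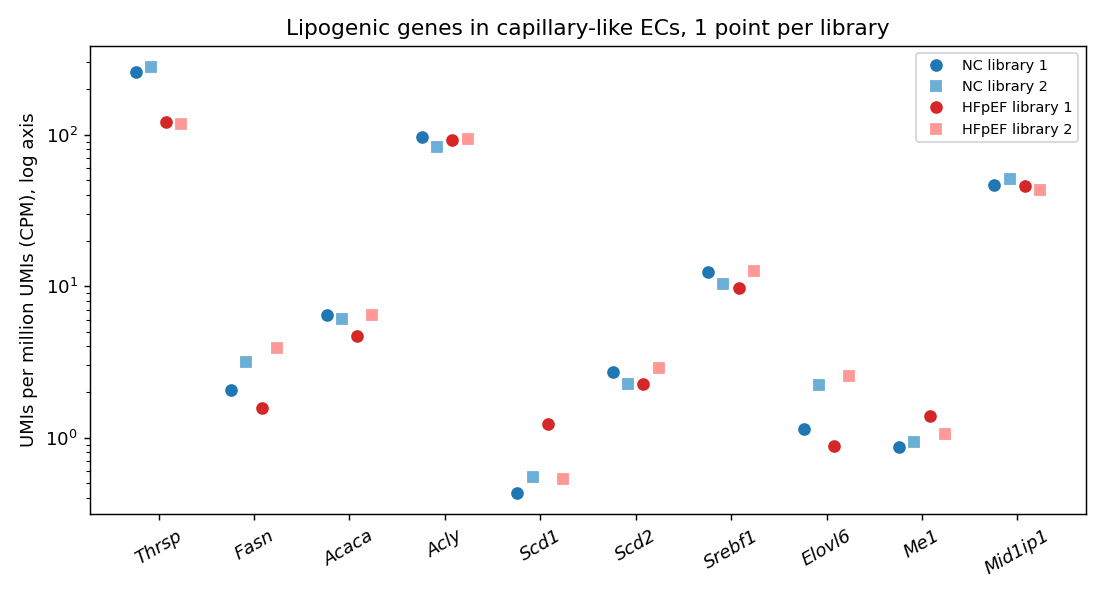
Level (CPM, log axis) of the 9 genes and of the paralog Mid1ip1 in capillary-like ECs, with 1 point per library. The Thrsp points of the diets are far apart (260.1 and 279 against 121 and 118 CPM), while the Acly points of both diets lie between 82.7 and 97.0 CPM.

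Acly, which makes cytosolic acetyl-CoA, was the member next to Thrsp in abundance. It had 97.0 and 82.7 CPM in NC and 92.1 and 93.1 in HFpEF, a log2 fold change of 0.06 with a standard error of 0.12. Both HFpEF libraries lay between the NC libraries. Acly was also counted in other cells at like or higher levels, with 86.6, 80.2, 89.7 and 83.3 CPM in artery-like ECs and 177, 123, 128 and 124 in lymphatic-like ECs. In vein-like ECs it was lower in HFpEF without overlap, at 103 and 90.4 CPM in NC and 48.7 and 76.1 in HFpEF, with a log2 fold change of -0.51 (standard error 0.21). That value was 0.19 when each cell was assigned by its own markers.

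Acaca, whose product malonyl-CoA also restrains mitochondrial fatty acid uptake, had 6.47 and 6.02 CPM in NC and 4.72 and 6.44 in HFpEF capillary-like ECs. Its log2 fold change was -0.08 with a standard error of 0.21. A protein-coding gene on the other strand, Gm11437, overlaps Acaca, and how the counting used strand is not given in the sources used here.
Fasn was nearly absent from capillary-like ECs, with 2.05 and 3.15 CPM in NC and 1.57 and 3.90 in HFpEF, from 38, 57, 9 and 103 UMIs. The HFpEF libraries lay on both sides of the NC libraries, and the log2 fold change of 0.29 had a standard error of 0.39. Thus the gene that shares the CCAAT pair shown above was at low level and without a separation of the diets. In vein-like ECs, Fasn had 8.35 and 7.47 CPM in NC and 0 and 6.87 in HFpEF, from 11, 11, 0 and 13 UMIs, and mural-like cells had 6.59, 9.11, 4.15 and 8.92 CPM. Fasn in fibroblast-like cells was at 65.7 and 29.3 CPM in NC and 0 and 17.96 in HFpEF, from 5, 4, 0 and 5 UMIs.

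Srebf1, the regulator, had 12.3 and 10.4 CPM in NC and 9.78 and 12.5 in HFpEF capillary-like ECs, with a log2 fold change of 0.03 (standard error 0.17). Its libraries overlapped in artery-like ECs (16.8, 14.9, 20.6 and 15.5 CPM) and in vein-like ECs (16.7, 10.9, 2.70 and 21.7 CPM). Endocardial-like cells had more, with 54.3 and 29.9 CPM in NC and 26.3 and 26.2 in HFpEF, from 17, 10, 2 and 9 UMIs. Srebf1 shares its locus with Rai1 on the other strand and with microRNA genes.

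Elongation and desaturation were represented by few transcripts in capillary-like ECs. Elovl6 had 1.13 and 2.21 CPM in NC and 0.873 and 2.54 in HFpEF, with a log2 fold change of 0.29 and a standard error of 0.48. Scd1 had 8, 10, 7 and 14 UMIs (0.431, 0.553, 1.22 and 0.531 CPM), and its log2 fold change of 0.53 had a standard error of 0.56. Scd2, the isoform of brain and of tissues outside liver, had 2.70 and 2.27 CPM in NC and 2.27 and 2.88 in HFpEF, with a log2 fold change of 0.13 and a standard error of 0.27. None of the 3 separated the diets. Scd1 and Scd2 are close copies on chromosome 19, at 44394455 to 44407879 and at 44293674 to 44306864. Whether reads of one were counted for the other was not tested.

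Both desaturase genes were higher in artery-like than in capillary-like ECs in each library. Artery-like ECs had 12.1 and 13.0 CPM of Scd1 in NC and 20.6 and 15.3 in HFpEF, higher in HFpEF without overlap. Scd2 went the other way, with 15.4 and 23.5 CPM in NC and 11.3 and 15.1 in HFpEF. The log2 fold changes were 0.43 (standard error 0.27) for Scd1 and -0.45 (standard error 0.27) for Scd2, each less than 2 standard errors from 0. After thinning, the Scd2 value was 0.33, and the cause of the change in sign was not tested. In artery-like ECs, 7 of the 9 members passed the count filter (Fasn and Elovl6 did not), with Thrsp and Scd2 lower and Scd1 higher without overlap, where 22.1% of 10404 genes were lower and 22.2% higher.

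Scd1 was highest outside the endothelium. B cell-like cells, of which there were 115, had 214 and 280 CPM in NC and 138 and 85.9 in HFpEF, from 15, 51, 5 and 17 UMIs. Fibroblast-like cells had 131, 36.7, 57.8 and 35.9 CPM of Scd1 and 158, 29.3, 96.3 and 53.9 CPM of Scd2. Vein-like ECs had 1 Scd1 UMI in all, although their Scd2 level was 14.4, 8.15, 16.2 and 8.45 CPM. Lymphatic-like ECs likewise had no Scd1 UMI and 30.5, 123, 91.6 and 97.1 CPM of Scd2. Endocardial-like cells held 92.7, 50.8, 39.4 and 55.2 CPM of Scd2. Scd2 was thus counted more often than Scd1 in vein-like, lymphatic-like and endocardial-like cells. This was not particular to them. Over the 4 libraries together, Scd2 had 180 UMIs against 39 of Scd1 in capillary-like, 238 against 193 in artery-like and 185 against 74 in mural-like cells. B cell-like (4 against 88) and unassigned cells (9 against 14) went the other way.

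Me1, which makes NADPH from malate, had 0.863 and 0.940 CPM in NC and 1.40 and 1.06 in HFpEF capillary-like ECs. These are 16, 17, 8 and 28 UMIs, and although the libraries did not overlap, the log2 fold change of 0.37 had a standard error of 0.38. Me1 overlapped in artery-like ECs (3.85, 6.11, 3.09 and 7.45 CPM) and vein-like ECs (7.59, 4.08, 8.11 and 3.70 CPM). Me1 in endocardial-like cells was at 28.8 and 8.96 CPM in NC and 52.5 and 34.9 in HFpEF, from 9, 3, 4 and 12 UMIs. In vein-like ECs, 7 of the 9 members passed the filter (Scd1 and Elovl6 did not), and 3 were lower without overlap (Thrsp, Fasn and Acly) and 0 higher, where 21.7% of 8926 genes were lower and 21.1% higher.

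Mid1ip1, the paralog of Thrsp on chromosome X, differed little between the diets. It had 46.7 and 51.1 CPM in NC and 45.6 and 43.4 in HFpEF capillary-like ECs, with a log2 fold change of -0.12 and a standard error of 0.10. On CPM the diets were just separated, and on CPM after TMM scaling they overlapped. After thinning, 4.08% and 4.36% of NC and 3.76% and 4.12% of HFpEF cells had a Mid1ip1 UMI, and 9.43%, 7.50%, 8.87% and 8.32% had an Acly UMI. For the remaining 7 members the share was at most 1.39%, the highest of the Srebf1 values. Thrsp was thus counted in more capillary-like ECs than any other member.

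The wider pathway was described with 5 lists of 105 genes, of which 87 could be tested in capillary-like ECs. None of the 87 was called by edgeR's quasi-likelihood test at an adjusted p under 0.05, where 0.115% of all 12168 genes were called. At an unadjusted p under 0.05, 6 of the 87 were higher and 14 lower. Of all 12168 genes, 1345 were higher and 1168 lower at that threshold (20.7% in either direction). DESeq2 called 5 of them (Hilpda, Insig1, Plin2, Pnpla2 and Trib1), where it called 309 of all 12168 genes (2.54%). By list, the medians of the log2 fold changes ran from -0.19 to -0.04, against -0.0046 over all genes.

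Of the 28 other lipogenic enzymes 22 were tested, with 1 higher and 5 lower at an unadjusted p under 0.05 and a median of -0.04. At that threshold 1345 of all 12168 genes were higher and 1168 lower. Tecr, which catalyses the last reduction of very long-chain elongation, had 72.2 and 62.4 CPM in NC and 51.5 and 50.5 in HFpEF (TMM-scaled, as for all list genes). Its log2 fold change was -0.40 with a standard error of 0.11 (edgeR, adjusted p = 0.129). The elongase Elovl1 had 97.6, 73.9, 61.0 and 71.3 CPM, and Elovl5 74.6, 58.7, 67.6 and 73.7. Acsl4, which activates arachidonate, had 20.1 and 22.6 CPM in NC and 27.6 and 29.8 in HFpEF (log2 fold change 0.44, standard error 0.12, adjusted p = 0.117). The last value did not pass the threshold either.

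The NADPH-supplying genes had the lowest median, at -0.19 over 10 tested genes. Their log2 fold changes ran from -1.01, in a gene under a mean of 10 CPM that was not named, to 0.16. No gene of the list was higher and 6 were lower without overlap (25.6% and 26.8% of all genes). At an unadjusted p under 0.05, 2 were lower, as were 1168 of all 12168 genes. The pentose phosphate enzymes Taldo1 (106, 118, 96.6 and 97.0 CPM) and Pgls (82.4, 94.9, 72.4 and 74.2) were among those without overlap, and Tkt (66.8, 74.9, 60.8 and 71.2) was not. Idh1, the cytosolic isocitrate dehydrogenase, had 27.2 and 27.3 CPM in NC and 21.4 and 24.6 in HFpEF, a log2 fold change of -0.23 with an adjusted p of 0.305 in edgeR's test.

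Among the regulators, 20 of 22 genes were tested, and the median was -0.10. Trib1, a pseudokinase that directs C/EBPα to degradation and lowers hepatic lipogenesis, had 31.6 and 32.5 CPM in NC and 53.5 and 69.4 in HFpEF capillary-like ECs. Its log2 fold change was 0.96 with a standard error of 0.14 (edgeR, adjusted p = 0.0537), just short of a call. In artery-like ECs Trib1 rose from 53.4 and 55.3 to 105 and 93.0 CPM (log2 fold change 0.84, standard error 0.15, adjusted p = 0.0169 in edgeR's test). In vein-like ECs it rose from 17.6 and 26.8 to 66.9 and 61.8 CPM (log2 fold change 1.5, standard error 0.26, adjusted p = 0.0209). It was the 1 gene called of the 82 listed genes tested in artery-like and of the 71 in vein-like ECs, beside 0.721% and 0.415% of all genes called there. Whether the change differs between the classes was not tested. The call was lost in both classes with thinning and with gating by own markers, in artery-like ECs also at the finer clustering, and in vein-like ECs with DESeq2 (adjusted p = 0.0795).

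Insig1, which holds SREBP precursors in the endoplasmic reticulum and is itself an SREBP target, had 37.3 and 41.5 CPM in NC and 56.0 and 83.8 in HFpEF capillary-like ECs. Its log2 fold change was 0.85 with a standard error of 0.18 (edgeR, adjusted p = 0.0913). Insig1 was also a leading gene of the heat shock cluster, which held far more HFpEF than NC cells, and the part of this in the Insig1 value was not tested. Pparg, the fatty acid-sensing nuclear receptor, was the most abundant regulator, with 163 and 135 CPM in NC and 125 and 131 in HFpEF (log2 fold change -0.22, adjusted p = 0.359 in edgeR's test). Nr1h2, the LXRβ gene, had 79.0, 75.7, 72.7 and 72.3 CPM, and Usf2 64.7, 65.6, 52.2 and 59.7 CPM.

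Of 27 genes of triglyceride synthesis and storage 25 were tested, with a median of -0.05. The log2 fold changes ran from -0.60 to 1.15, both in genes under a mean of 10 CPM that were not named. Mgll, the monoglyceride lipase, was the most abundant of the list at 1532, 1683, 1421 and 1792 CPM. The lipid droplet coat gene Plin2 had 124 and 145 CPM in NC and 187 and 186 in HFpEF (log2 fold change 0.48, standard error 0.11, adjusted p = 0.105 in edgeR's test). Hilpda, an inhibitor of the lipase ATGL found on droplets, had 36.5 and 39.3 against 53.1 and 70.6 CPM (0.73, standard error 0.15, adjusted p = 0.0848).
Pnpla2, the ATGL gene, had 185 and 159 CPM in NC and 123 and 127 in HFpEF (log2 fold change -0.46, standard error 0.11, adjusted p = 0.108 in edgeR's test). Dgat1, which makes triglyceride from diglyceride, had 17.3 and 16.1 against 12.1 and 11.0 CPM (-0.55, standard error 0.14, adjusted p = 0.109). Each of these 4 genes separated the diets, and none passed the threshold over all genes. Of the 25 tested genes of the list, 5 were higher and 8 lower without overlap, beside 25.6% and 26.8% of all genes.

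Of 17 genes of the thyroid hormone and LXR response, the inputs by which Thrsp is known, 10 were tested. None was higher and 4 were lower without overlap, beside 25.6% and 26.8% of all genes. At an unadjusted p under 0.05, 3 were lower, as were 1168 of all 12168 genes, and the median was -0.07. Klf9, a thyroid hormone target, had 564.3 and 432 CPM in NC and 399 and 354 in HFpEF (log2 fold change -0.41, standard error 0.15, adjusted p = 0.196 in edgeR's test). The LXR target Lpcat3 had 30.7 and 30.6 CPM in NC and 26.0 and 21.04 in HFpEF (-0.41, standard error 0.13, adjusted p = 0.149). The LXR target Mylip (401, 375, 385 and 339 CPM) and the corepressor gene Ncor1 (221, 212, 216 and 234 CPM) overlapped.

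**Figure D5:**
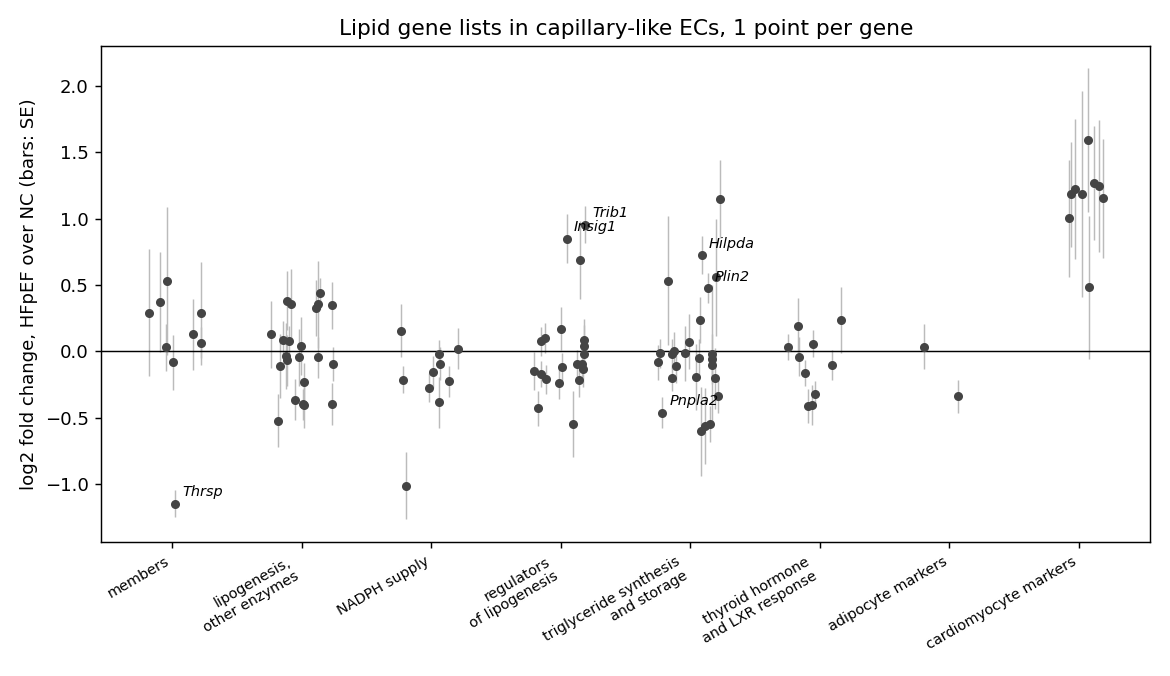
Log2 fold change (HFpEF minus NC) of each tested gene in capillary-like ECs, grouped by list, with 1 point per gene, standard errors as bars and a line at 0. Thrsp, at -1.15, lies below every other gene shown. The 5 lipid lists reach from -1.01 (an NADPH gene) to 1.15 (a triglyceride gene), both under a mean of 10 CPM and not named. Trib1 (0.96) and Insig1 (0.85) are among the highest of these lists. Cardiomyocyte markers stand above 0.

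Markers of other cells were looked at beside the lower Thrsp level of HFpEF capillary-like ECs. Of 13 adipocyte markers, 4 had a UMI in every library and 4 (Pck1, Lep, Cidec and Plin1) were at 0 in all, while Adipoq, the defining gene, had 1, 2, 0 and 1 UMIs. Their summed level of 418 and 485 CPM in NC and 392 and 448 in HFpEF overlapped, and it came almost wholly from Aqp7 and Lipe. The defining genes of fat cells, a major site of Thrsp, were thus at or near 0. Cardiomyocyte markers summed to 145 and 92.2 CPM in NC and 432 and 143 in HFpEF, with a UMI of all 9 genes in every library. The Thrsp levels of HFpEF library 1 and HFpEF library 2 were within 1.03-fold of each other. Erythroid markers summed to 531 and 126 CPM in NC and 695 and 1977 in HFpEF, and the Thrsp log2 fold change was -1.14 without the hemoglobin-rich cells. The capillary markers themselves summed to 14461 and 13746 CPM in NC and 11087 and 11191 in HFpEF, where they stood at 0.790 of the NC mean, against 0.444 for Thrsp. The part of RNA from other cells, or of the lower capillary markers, in the Thrsp difference was not tested.

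The libraries of a diet differed in Scarb1 by 2.26-fold in NC and 2.14-fold in HFpEF capillary-like ECs. Thrsp differed between the same libraries by 1.07-fold and 1.03-fold. A relation between Thrsp and Scarb1 was not tested, and since no genotype is given, no effect of the receptor was assessed.

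Genes found in the same cells as Thrsp were looked for within each library. Thinned capillary-like ECs with a Thrsp UMI (909, 870, 278 and 1003 cells) were set against those without (3131, 2664, 2168 and 8019), over 7600 genes, of which 639 had a log2 ratio over 0 and 660 under 0 in all 4 libraries. The gene with the highest lowest-of-4 log2 ratio was Castor1, a cytosolic arginine sensor, at 0.31 to 0.55. It was followed by Dctn4, Ubxn2b, Vezt, Chmp6, Mul1, Tor3a, Mettl16, Ppa2 and Dusp23. At thinning depths of 500 and 2000 UMIs, 0 of these 10 were again among the 10 highest, and 2 of the 10 were over 0 in all 4 libraries at either depth, so the order is not stable. Of the members, Acly ranged from -0.36 to 0.18 over the libraries and Srebf1 from -0.08 to 0.26, with both signs. Cxcl10 (-1.45 to -0.68) and Pgf (-1.82 to -0.43), singled out after the values were seen, were lower in the cells with Thrsp in all 4 libraries. In these cells Cxcl10 had 36, 39, 29 and 156 UMIs, but Pgf only 3, 1, 0 and 10. The -1.82 rests on the 0 UMIs, and its size depends on the prior of 10 CPM added to both sides. Values of the 2 genes at the other thinning depths are not given here. Cells are not replicates, and these ratios carry no test.

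Across 12 values (capillary-like, artery-like and vein-like ECs in 4 libraries), the genes most like Thrsp were Lims2 (Pearson r of log2(CPM + 1) 0.96), Sult1a1 (0.95), Bag5 (0.93), Fermt2 (0.92) and Id3 (0.91), of 7816 genes. The 12 points share libraries and, in part, free RNA, so the values of r are descriptions. Sult1a1, a phenol sulfotransferase gene, had 334 and 308 CPM in NC and 182 and 161 in HFpEF capillary-like ECs, and 182, 187, 79.4 and 91.8 CPM in artery-like ECs. Of the lipogenic genes looked up in this order, Acly was at place 1618 (r 0.39), Srebf1 at 3713 (0.02), Mid1ip1 at 4747 (-0.17) and Scd2 at 6259 (-0.45).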

How the data were processed

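Processed counts of 4 libraries (2 NC, 2 HFpEF) were used. The deposited values are UMI counts per gene and cell, which the authors made with fastp and Cell Ranger 5.0.1 on mm10 (GRCm38) with Ensembl 100 genes, after equalizing reads per cell between samples. This can lower UMIs per cell but not change a gene's share of them. The authors' cell filter was applied again, since the files still held 42 cells at or below 200 genes and 1669 at or above 20% mitochondrial UMIs.

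The 9 members, the gene lists and the markers were chosen with earlier results of these data known. Cells were clustered on 2000 variable genes (without members, listed lipid genes, Scarb1, mitochondrial and hemoglobin genes), 10 principal components, 20 neighbours and Louvain resolution 0.8. A cluster took another cell type's name where its mean marker level exceeded the median cluster by 3 on the log2 scale (2 for artery). Where none did, the 10 leading genes decided. A cluster with more markers of another type than capillary markers among them was named as led by that type. The remaining clusters were named capillary-like, with no required level of capillary markers. These names were rebuilt here and need not match the study's. Doublets were not removed, except in an alternative. The study compared cells by rank sums. Here counts were summed per library and class and fitted across all genes with edgeR's quasi-likelihood test (filterByExpr, TMM, diet as the only term), with Benjamini-Hochberg adjustment and a call at an adjusted p under 0.05. Because 2 libraries against 2 allow no exact permutation p below 0.33, none was made. The script was tested on simulated data in which 200 genes were changed by 1 on the log2 scale. It recovered 145 of them in capillary, 128 in artery and 105 in vein ECs. False calls were 32 of 177, 8 of 136 and 9 of 114, in each class a larger part than the threshold of 0.05 allows. Nothing in the labels says that the replicate numbers pair the libraries. The deviations of NC library 1 and HFpEF library 1 from their diet means had a correlation of 0.0087 over 7624 genes. Such a value over all genes cannot exclude a pairing that affects few genes, and Scarb1 was higher in library 1 of each diet. Levels are CPM of 3′ UMIs, not divided by length. Shares have 95% exact Clopper-Pearson intervals, but the upper limit given for a share of 0 is 3 divided by the number of cells.

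Named were the members and Mid1ip1, and from each list the genes called in capillary ECs, the 3 most abundant and the 2 with the largest change at 10 CPM or more. The 10 genes most often found with Thrsp and the 5 most like it were named too. Versions were R 4.3.3, DESeq2 1.42.0, edgeR 4.0.16, Python 3.11.15, pandas 2.3.3, matplotlib 3.10.9, igraph 0.11.9, statsmodels 0.14.6, scikit-learn 1.9.0, scipy 1.17.1 and numpy 2.4.6. Positions are from GENCODE M21 and promoters from RefSeq. Genotypes were not analysed.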

Additional observations from a re-analysis of the deposited data

How the results depend on the processing

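The lower Thrsp level in HFpEF kept its direction in all 16 alternatives for capillary ECs (log2 fold change -1.20 to -1.02) and all 14 for artery ECs (-1.16 to -0.76), and in 13 of 14 for vein ECs. It moved by more than the library spread in capillary ECs with each cell gated by its own markers (-1.05), with ECs set apart by other markers added (-1.08) and with all ECs (-1.02), the last 2 chosen after seeing the data. In artery ECs own-marker gating gave -0.76. In vein ECs it gave 0.12, the 1 reversed direction, from few UMIs, and thinning gave -0.55. Leaving out a library gave -1.20 to -1.10 in capillary, -1.16 to -0.85 in artery and -0.92 to -0.65 in vein ECs. The HFpEF share of cells with Thrsp over the NC share, 0.477, was 0.537 at 2000 UMIs, 0.525 with own-marker gating and 0.371 without thinning. Of the 10 genes most often found with Thrsp, 0 were kept at 500 and 0 at 2000 UMIs.

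How many genes were called depended on nearly every choice, and for each such choice the cause was not tested. The capillary count of 14 was 28 with DESeq2 size factors, 309 with DESeq2, 978 without the count filter, 27 without doublets, 1 with own-marker gating, 151 at resolution 1.5, 210 with thinning, 28 without mitochondrial genes, 1 with the added ECs and 9 with all ECs. The artery count of 75 was 27 with DESeq2, 284 without the filter, 37 without doublets, 19 at resolution 1.5 and 14 with thinning. The vein count of 37 was 19 with DESeq2, 173 without the filter, 4 with thinning and 0 with own-marker gating, where 3389 genes were tested and 224 had an unadjusted p under 0.05 (edgeR). Leaving out any 1 of the 4 libraries moved each count by more than 1.5 times, to between 43 and 446 in capillary, 41 and 270 in artery and 76 and 184 in vein ECs. A replicate block gave 383, 213 and 55 calls, though nothing in the labels says that the replicate numbers pair the libraries. Of the listed genes, 0 to 10 were called in capillary ECs over the alternatives, with Trib1 called in 8 of 16 (and in 11 of 14 for artery and for vein ECs). Enzymes with few UMIs turned sign without HFpEF library 2, to -0.68 for Fasn and -0.89 for Elovl6 in capillary ECs. Depth limits what can be said of Fasn, Scd1, Elovl6 and Me1, which had 5 to 103 UMIs per library in capillary ECs.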
